A study of Oryza sativa Indica Group with 16 samples.

Results

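Iron uptake and nicotianamine genes were followed in rice seedlings with and without salt. The set held 7 genes, osysl15, osysl16, IRT1, IRT2, NAS1, NAS2 and NAS3, chosen by name through the platform annotation as every probe set assigned to exactly 1 of them by symbol or synonym. Each of the 7 genes had 1 probe set, so 7 of the 57258 rice probe sets on the array were members, and no gene had a second probe set to compare with. The genes were chosen with earlier results of these arrays known, since osysl15 had stood out for its lower signal in salt-treated MI48. Their values in MI48 are therefore a description, with no test, and tests are given only for the bulks.

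Rice seedlings of 4 genotypes were grown to 10 days and sampled in control conditions or after 24 h in 150 mM NaCl, with 2 Affymetrix arrays in each of 8 groups, each array from 8 µg of total RNA. MI48, which is salt-sensitive, and CSR27, which is salt-tolerant, are the parents of recombinant inbred lines. Lines of like salt phenotype were pooled into a tolerant and a sensitive bulk, so each bulk averages over several genotypes, and how many lines it holds is not stated in the labels. All are labelled as indica rice seedlings, and the labels name no organ. The design text calls the arrays of a group biological replicates without saying which plants went into each, so p-values measure the spread between these arrays.

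Rice takes up iron by both routes known in plants. IRT1 and IRT2 are transporters of ferrous iron in the plasma membrane, while the oligopeptide-type transporter encoded by osysl15 brings in ferric iron bound to deoxymugineic acid, a chelator that roots secrete. The nicotianamine synthases NAS1, NAS2 and NAS3 make nicotianamine from S-adenosylmethionine. Nicotianamine is the precursor of deoxymugineic acid and itself carries iron, copper and zinc inside the plant. The transporter encoded by osysl16 moves metal-nicotianamine complexes in vascular tissue. In rice, iron deficiency is known to raise osysl15, IRT1, NAS1 and NAS2 in roots, and NAS3 is the synthase gene known for its expression in leaves. In the gene order of the name table NAS1 and NAS2 are direct neighbours, with 0 coding genes between them, IRT1 and IRT2 have 1 between them, osysl15 lies beside YSL2, and osysl16 beside YSL9.

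Signals are given here as levels, the deposited intensity divided by the median of the array's own rice probe sets, because the arrays had no common brightness. A level of 1 is the median probe set of that array. Levels of different probe sets cannot be set against each other. Array medians ran from 14.8 to 26.1 on the 8 bulk arrays. They were 1.9 and 1.5 on the MI48 control arrays, 86.3 and 4.6 on the MI48 salt arrays, and 1.9 and 1.6 on the CSR27 arrays used. For CSR27, control replicate 2 and salt replicate 1 had no Spearman rho above 0.0101 with any array of another group (limit 0.1). Both were taken as arrays without rice signal and left out, so 14 arrays remained and CSR27 had 1 array per condition. Leaf transcripts were bright on all 14, where the 12 probe sets of the leaf markers had summed levels from 1163 to 6399.

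**Figure D1:**
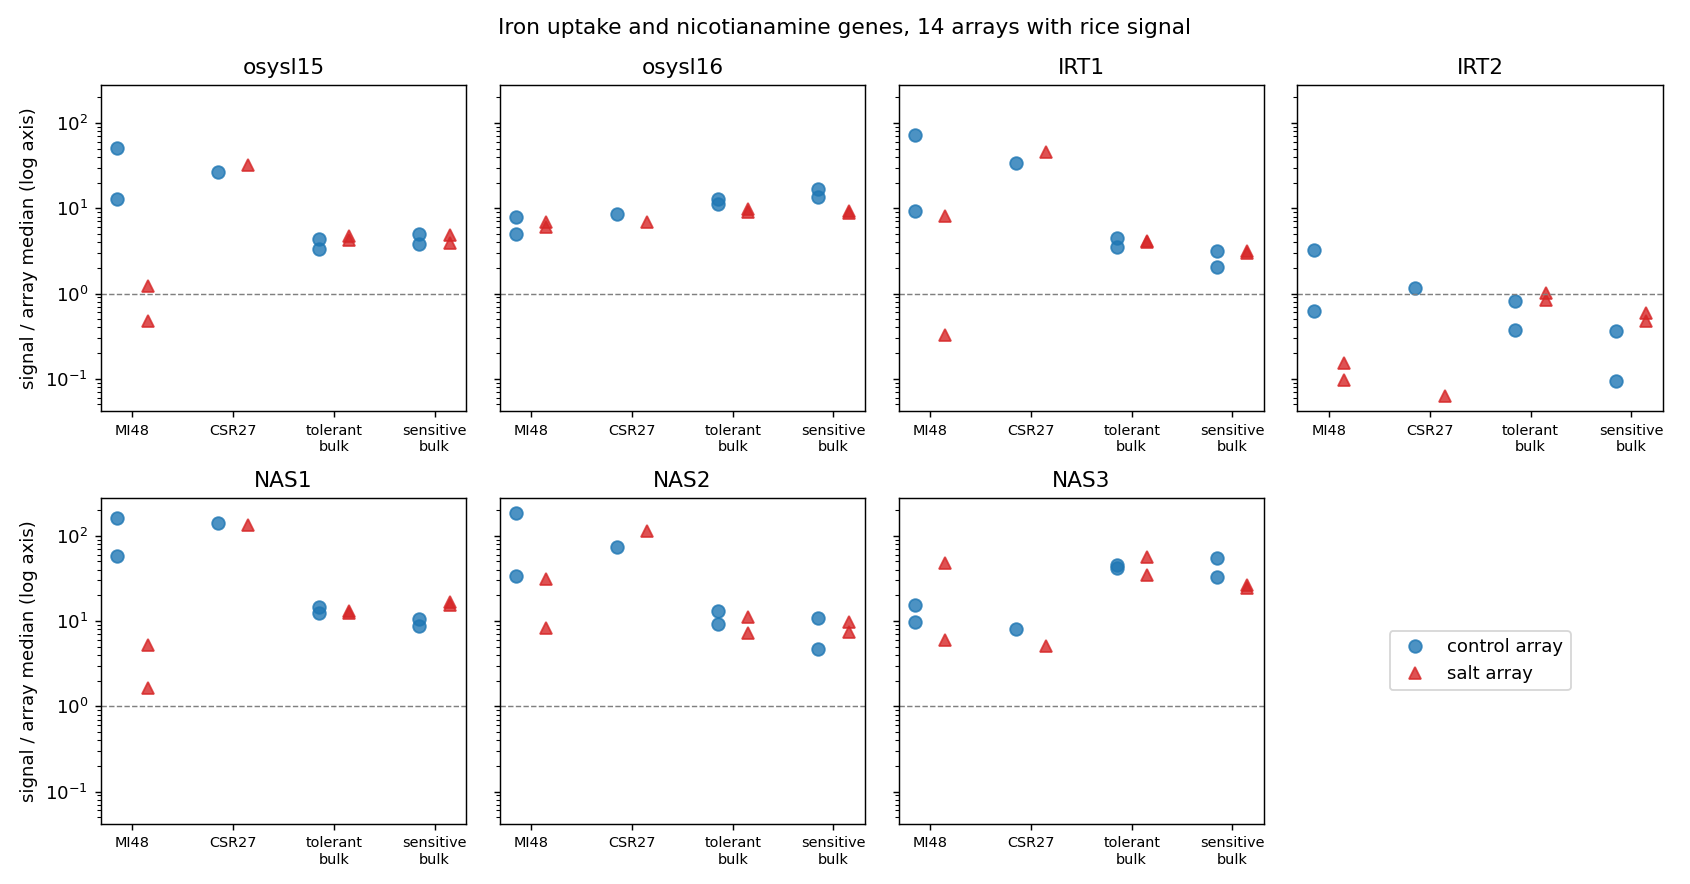
Levels of the 7 genes on the 14 arrays with rice signal. The vertical log axis is the signal over the array median, circles are control arrays, triangles are salt arrays, and the dashed line marks a level of 1. In the MI48 column the salt triangles of osysl15, IRT1, IRT2, NAS1 and NAS2 lie below the control circles, while in the bulk columns control and salt of osysl15, IRT1 and NAS2 overlap.

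In MI48 5 of these 7 genes had lower levels on the salt arrays. The MI48 salt arrays were also brighter than the control arrays, and their Spearman rho was 0.657 to 0.709 with the MI48 control and CSR27 arrays and 0.759 to 0.782 with the bulk arrays. Salt and these properties of the arrays cannot be told apart in MI48. The level of osysl15 was 12.9 and 50.8 on the control arrays and 1.23 and 0.478 on the salt arrays. NAS1 stood at 57.9 and 163 in control and at 5.19 and 1.63 in salt. For both genes the groups were far apart in level. The mean difference on the log2(level + pseudocount) scale was -4.71 for osysl15 and -4.96 for NAS1. On that scale the closest pair of a salt and a control array still differed 9.12-fold and 10.8-fold. Before division by the array median the deposited signals overlapped. They were 24.5 and 76.2 in control and 106.5 and 2.2 in salt for osysl15. For NAS1 they were 110.1 and 245.2 in control and 447.6 and 7.5 in salt.

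The other members that were lower rested more on single arrays. IRT1 had levels of 9.37 and 71.6 in control and 8.1 and 0.326 in salt, so its groups were separate by a factor of 1.15 at their closest, with a mean log2 difference of -3.65. NAS2, the neighbour of NAS1, had 34.2 and 187 in control and 31.4 and 8.26 in salt, a mean log2 difference of -2.30, with the closest arrays 1.09-fold apart. IRT2 was dim throughout, at 0.632 and 3.27 in control and 0.0962 and 0.152 in salt, a mean log2 difference of -2.39. MI48 salt replicate 1 thus lay close to the lower control array for IRT1 and NAS2.

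Nicotianamine synthase NAS3 and the transporter gene osysl16 did not share this pattern in MI48. NAS3 had levels of 15.4 and 9.8 in control and 47.5 and 6.02 in salt, with overlapping groups. The levels of osysl16 were 5 and 7.87 in control and 6.98 and 6 in salt, also overlapping. In all, both salt arrays lay below both control arrays for 5 of the 7 genes. Over all 42300 probe sets that passed the filter on dim signals the same held for 10.9%, and 38.8% were higher on both salt arrays. Since osysl15 was picked on this contrast, nothing is read from that count. IRT2 passed the filter only through 3 arrays at or above the array median, 2 of them the arrays of MI48 control replicate 2 and CSR27 control replicate 1.

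The values were also read as the position of a gene within its own array. The percentile of osysl15 among all rice probe sets was 91.9 and 98.9 on the MI48 control arrays and 54.8 and 36.3 on the salt arrays. NAS1 was at 98.5 and 99.9 in control and at 75.7 and 60.6 in salt. IRT1 was at 88.9 and 99.3 in control and at 80.5 and 31.4 in salt. By percentile osysl16 was lower as well, at 81.8 and 89.9 in control and 78.9 and 77.2 in salt, so its place in MI48 depended on the scale used. Percentiles of reference genes were lower as well: the median over their 20 probe sets was 98.9 and 98.7 in MI48 control and 95.3 and 88.7 in MI48 salt. Of these 20, 6 lay lower and 8 higher on both salt arrays, and their median log2 difference was -0.13, or -1.38 after quantile normalization.

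Of 8 root marker probe sets 3 were lower and 1 was higher on both MI48 salt arrays. Over all probe sets that passed the filter these shares were 10.9% and 38.8%. LSI1, the silicon influx transporter of rice roots, had levels of 46.8 and 101 in control and 8.14 and 5.41 in salt, a 10.1-fold difference of means on the log2 scale. LSI2, the partner silicon efflux transporter, had 5.84 and 18.9 in control and 1.12 and 0.0652 in salt. The ammonium transporter probe set of AMT1-2 had 14.2 and 7.47 in control and 2.05 and 0.0435 in salt. The other 5 root marker probe sets, of SHR1, SCR1 and CASP1, did not fall in this way: 4 overlapped and 1 was higher in salt. The summed level of all 8 root marker probe sets was 72.7 and 135 in MI48 control and 11.1 to 22 in MI48 salt, and between 1 and 4 of them were below the array median on each array. In control that sum came mostly from LSI1, LSI2 and AMT1-2. Leaf marker sums ran from 1163 to 1501 in MI48 control and from 1638 to 6399 in MI48 salt, and seed marker sums were 5.79 to 6.47 and 4.54 to 198. The median log2 difference of the leaf markers was 1.01, or -0.32 after quantile normalization. Of their 12 probe sets 3 were higher on both salt arrays. In these extracts fewer cells of a type and less RNA per cell cannot be told apart, and the part of root tissue in the lower levels was not tested.

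**Figure D2:**
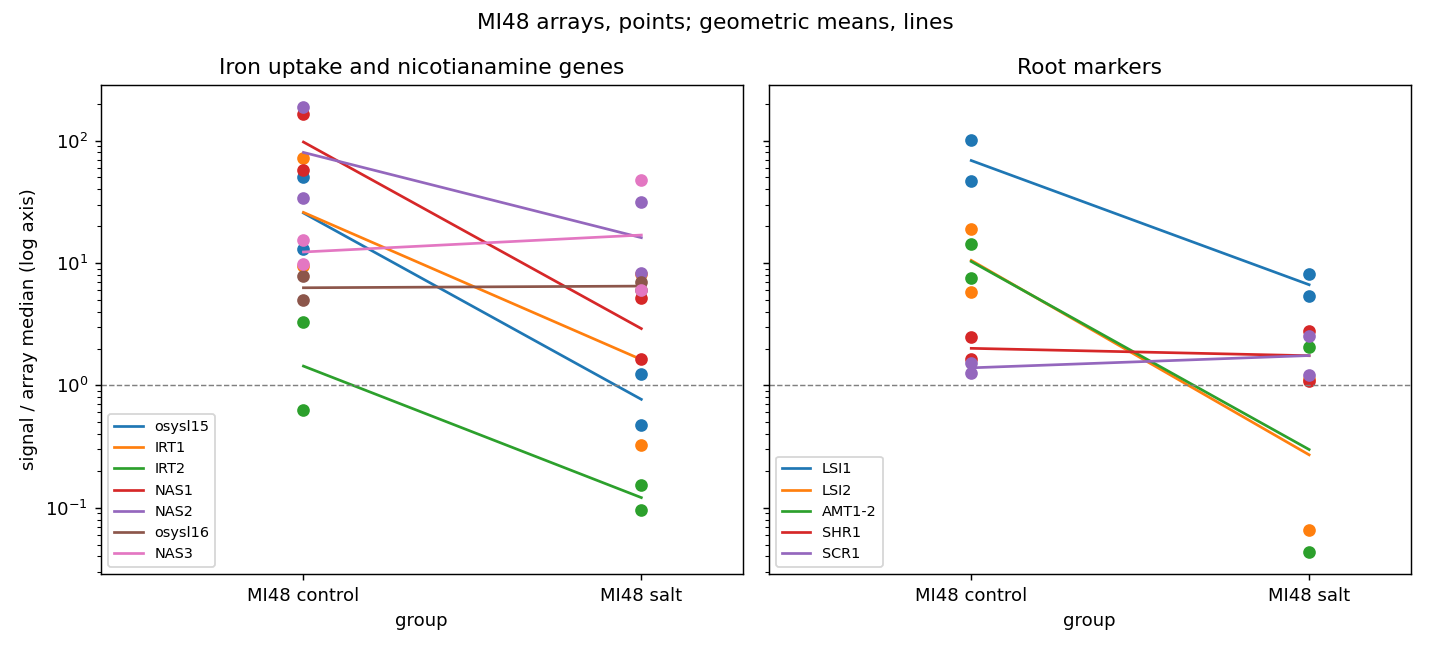
Levels on the 4 MI48 arrays, as points, with lines between the geometric means of control and salt, on a log axis of signal over array median. The left panel shows the 7 genes and the right panel the root markers LSI1, LSI2, AMT1-2, SHR1 and SCR1. CASP1, which includes the root marker probe set that was higher in salt (0.316 and 0.267 to 1.65 and 0.348), is not drawn. Lines of osysl15, IRT1, IRT2, NAS1 and NAS2 on the left and of LSI1, LSI2 and AMT1-2 on the right slope down.

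In CSR27, the tolerant parent, the single arrays of each condition gave levels near each other for most of the genes. The level of osysl15 was 26.5 in control and 32.3 in salt, and that of NAS1 was 141 and 133. That of IRT1 was 34.2 and 45.4, and that of NAS2 was 73.2 and 114. Levels of osysl16 and NAS3 were lower in salt, at 8.68 and 6.81 for osysl16 and 8.05 and 5.13 for NAS3. The dim IRT2 went from 1.16 to 0.0625 and was the only member at least 2-fold lower, on the log2(level + pseudocount) scale, while 0 were 2-fold higher. Of all probe sets that passed the filter 23.3% were at least 2-fold lower and 18.2% at least 2-fold higher on the CSR27 salt array. With 1 array per condition there is no replicate check and no test. The root marker sum was 97 on the CSR27 control array and 65.4 on the salt array, and LSI1 had 65.3 and 45.1.

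Set side by side over the 14 arrays, the levels of osysl15, NAS1, NAS2, IRT1 and NAS3 differed more between the MI48 control and CSR27 arrays and the bulks than between control and salt within a bulk. For osysl15 the MI48 control and CSR27 arrays held levels of 12.9 to 50.8, the 8 bulk arrays 3.36 to 5, and the MI48 salt arrays at most 1.23. NAS1 showed the same 3 ranges, with 57.9 to 163, then 8.7 to 16.8 on the bulk arrays, then at most 5.19. IRT1 had 9.37 to 71.6, then 2.04 to 4.43 on the bulk arrays, but MI48 salt replicate 1 lay above the bulks at 8.1. NAS3 ran the other way for the parents: 5.13 to 15.4 on the MI48 control and CSR27 arrays and 24.4 to 56.8 on the bulk arrays, with the MI48 salt arrays at 47.5, inside the bulk range, and 6.02. NAS2 had 34.2 to 187 on the MI48 control and CSR27 arrays, 4.64 to 13 on the bulk arrays, and 31.4 and 8.26 on the MI48 salt arrays. LSI1 had 45.1 to 101 on the MI48 control and CSR27 arrays and 15.3 to 35.6 on the bulk arrays. The MI48 control and CSR27 arrays were also the dimmest of the 14, so genotype and brightness cannot be told apart in this order.

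In the bulks osysl15, the ferric iron transporter gene, was not called in any comparison. Its levels were 4.38 and 3.36 in the tolerant bulk control, 4.74 and 4.22 in salt, 3.78 and 5 in the sensitive bulk control, and 4.84 and 3.86 in salt. The groups overlapped in both bulks. The log2 difference averaged over the bulks was 0.10 ± 0.17 (SE, 4 salt and 4 control arrays), with a 95% interval from -0.27 to 0.47 and a limma adjusted p = 0.75. IRT1, the ferrous iron transporter gene, had 4.43 and 3.56 in tolerant control, 4.03 and 4.12 in salt, 3.12 and 2.04 in sensitive control, and 3.02 and 3.13 in salt. Its averaged difference was 0.15 ± 0.18, with an interval from -0.25 to 0.55 (adjusted p = 0.65).

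Of the 6 members tested in the bulks, osysl16 alone passed in the averaged response to salt. The percentage called over all 32996 probe sets in that comparison was 14.9, with 2.63 higher and 12.2 lower, so 1 of 6 is near the background. The transporter gene osysl16 had levels of 12.7 and 11.3 in tolerant control, 9 and 9.77 in tolerant salt, 16.6 and 13.5 in sensitive control, and 9.19 and 8.7 in sensitive salt. The salt arrays lay below the control arrays in both bulks, as 20.7% of all tested probe sets did. It fell by 0.54 ± 0.12 on the log2 scale, a 1.45-fold change (limma adjusted p = 0.013). The fall was also called after quantile normalization, at -0.34 (adjusted p = 0.045). It no longer passed without tolerant bulk control replicate 1 (adjusted p = 0.081), tolerant bulk salt replicate 1 (0.058) or sensitive bulk salt replicate 2 (0.063). The median of all tested probe sets in this comparison was -0.13. In the tolerant bulk alone the value of osysl16 was -0.35 ± 0.17 and did not pass (adjusted p = 0.3), although its arrays did not overlap there, as held for 38.9% of all tested probe sets.

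In the sensitive bulk 2 of the 6 members were called, where 6.51% of all probe sets were called, 1.74% higher and 4.77% lower. NAS1 rose: its levels were 8.7 and 10.4 in control and 16.8 and 15.3 in salt, and both salt arrays lay above both control arrays, as for 15.3% of all tested probe sets. The log2 difference was 0.74 ± 0.17 (SE, 2 arrays against 2), a 1.67-fold rise (limma adjusted p = 0.027). The fall of osysl16 there was 0.73 ± 0.17 (adjusted p = 0.029). NAS3 had 55.1 and 32.7 in control and 26.5 and 24.4 in salt, with a log2 difference of -0.73 ± 0.26 that did not pass (adjusted p = 0.12). Its salt arrays lay below its control arrays, as for 33.4% of all tested probe sets. Both calls kept their sign in 15 alternatives but not always their significance: the log2 value of NAS1 ran from 0.61 to 0.98 and that of osysl16 from -0.88 to -0.53, and each was called in 6. Each was lost without any 1 of the 4 tolerant bulk arrays, whose removal leaves the sensitive values nearly as they were and lowers the number of arrays behind the shared spread, with adjusted p from 0.055 to 0.069. Each was also lost without either sensitive bulk salt array, with adjusted p from 0.13 to 0.2.

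**Figure D3:**
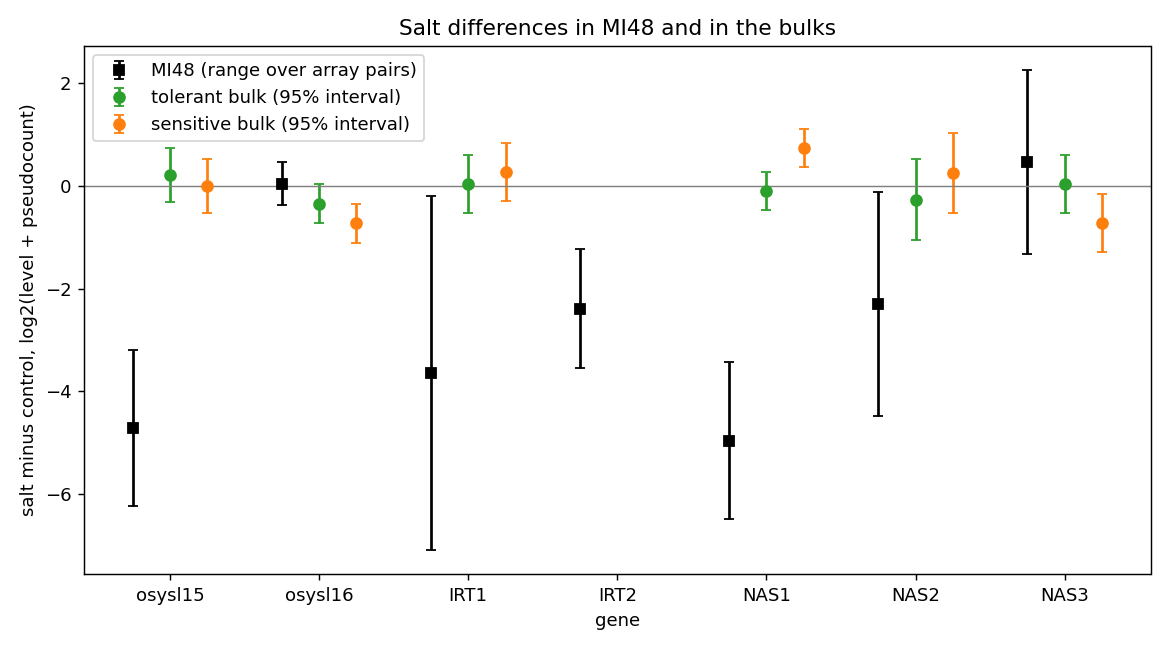
Salt minus control on the log2(level + pseudocount) scale for each gene. Black squares are MI48 with bars over the 4 pairings of a salt and a control array, and circles are the tolerant and the sensitive bulk with 95% intervals from limma. IRT2 has no circle because it was not tested in the bulks. The intervals of NAS1 and osysl16 in the sensitive bulk lie off 0, at 0.37 to 1.11 and -1.11 to -0.36, and that of NAS3, at -1.3 to -0.17, does so without passing the adjusted test.

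In the tolerant bulk 0 of the 6 members were called (limma, 0 also at an unadjusted p under 0.05), where 5.41% of all probe sets were, 0.985% higher and 4.42% lower. NAS1 had levels of 14.8 and 12.5 in control and 13.1 and 12.3 in salt, a log2 difference of -0.10 ± 0.17, which turned to 0.10 after quantile normalization. NAS2 had 13 and 9.19 in control and 11.2 and 7.27 in salt, and in the sensitive bulk 10.9 and 4.64 in control and 9.64 and 7.53 in salt. Its groups overlapped in both bulks. The levels of NAS3 were 45.2 and 41.6 in tolerant control and 56.8 and 34.5 in tolerant salt. The difference of the responses did not pass for any of the 6 (limma, 0 calls, 1 at an unadjusted p under 0.05). That 1 was NAS1, at -0.84 ± 0.24 (adjusted p = 0.44, interval from -1.36 to -0.32), so the rise of NAS1 is not shown to differ between the bulks. Over all probe sets 0.173% were called in that comparison, 0.0152% higher and 0.158% lower.

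Between the bulks no member differed in the adjusted test. In control 0 of 6 were called (limma, 2 at an unadjusted p under 0.05), against 1.45% of all probe sets, 1.18% higher in the tolerant bulk and 0.27% lower. IRT1 had a value of 0.61 ± 0.25 (adjusted p = 0.31), NAS2 of 0.60 ± 0.35 (adjusted p = 0.49) and NAS1 of 0.50 ± 0.17 (adjusted p = 0.2), each with the tolerant bulk higher, and IRT1 and NAS1 were the 2 under the unadjusted limit. After salt 0 of 6 were called (limma, 1 at an unadjusted p under 0.05), against 1.28%, of which 0.718% were higher and 0.564% lower in the tolerant bulk. That 1 was NAS3, at 0.79 ± 0.26 with the tolerant bulk higher (adjusted p = 0.18).

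IRT2, of the ferrous iron pair, was too dim in the bulks for the filter, with 1 of 8 bulk arrays above the array median. Its levels were 0.372 and 0.827 in tolerant control, 0.829 and 1.01 in tolerant salt, 0.368 and 0.0943 in sensitive control, and 0.589 and 0.48 in sensitive salt. The salt arrays lay above the control arrays in both bulks, in the tolerant bulk by a margin of 0.829 against 0.827. In the tolerant bulk 16% of the tested probe sets lay higher in this way, and 5.09% did so in both bulks. Without the filter its averaged log2 difference was 0.67 ± 0.38 (limma adjusted p = 0.4).

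Across the 8 bulk arrays the 7 genes did not move as 1 group. The log2 values of IRT1 correlated with those of NAS2 at a Pearson r of 0.75 and with IRT2 at 0.74, while NAS1 and osysl16 had -0.78 and the neighbours NAS1 and NAS2 had 0.23. These are descriptions over 8 arrays that share scaling and 4 groups. Among 2812 probe sets of other named genes the patterns most like osysl15 were those of QM1 (r = 0.87), CWZF7 (0.84) and BHLH148 (0.82). Most like NAS1 were AMY1.3, an alpha-amylase gene (0.92), IVD (0.92) and OsUGE-1 (0.92), and most like IRT1 were OSK24 (0.97), the potassium transporter gene HAK10 (0.96) and bip104 (0.96). These likenesses were picked as the highest of 2812 over 8 arrays and were not tested.

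Other genes of iron handling were described from a list, chosen with earlier results known. Its 103 names gave 41 further genes with 48 probe sets, of which 44 were tested. In the averaged response 1 rose and 9 fell, with a list median of -0.21 beside -0.13 over all tested probe sets, and with 2.63% and 12.2% called over the table. After quantile normalization 2 rose and 5 fell, where 5.56% and 6.43% of all probe sets did, with medians of -0.03 and 0. The count of 10 became 19 without sensitive bulk control replicate 2. It became 6 without tolerant bulk salt replicate 1 or sensitive bulk salt replicate 1, and 5 without tolerant bulk control replicate 1, tolerant bulk salt replicate 2 or sensitive bulk salt replicate 2.

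**Figure D4:**
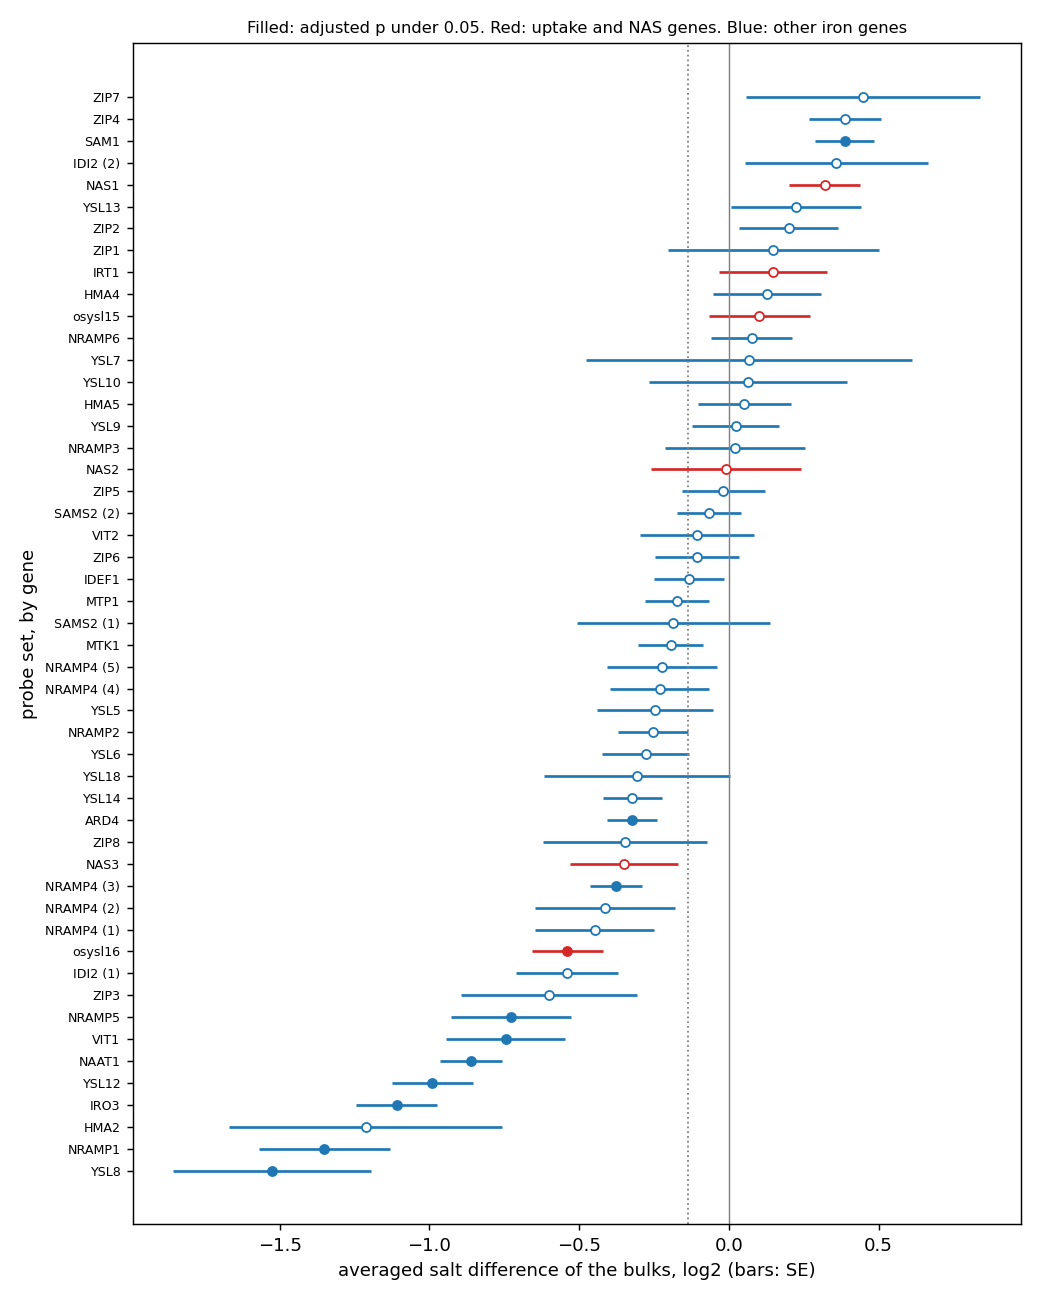
Averaged salt difference of the bulks (log2, points, with SE bars) for 50 probe sets, 6 of the uptake and nicotianamine genes in red and 44 of other iron genes in blue, numbered where a gene has several. Filled points passed an adjusted p under 0.05, and the dotted line marks the median of all tested probe sets, -0.13. Filled points lie mostly on the left, from YSL8 at -1.53 to ARD4 at -0.32, with SAM1 at 0.39 on the right.

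Iron regulators held 2 of these probe sets. IRO3, a basic helix-loop-helix factor of the iron response whose annotation entry also carries the name IRO2, had levels of 17.3 and 16.2 in tolerant control, 7.36 and 8.82 in salt, 22.4 and 17.7 in sensitive control, and 7.59 and 9.85 in salt. The groups were well apart in both bulks. IRO3 fell by 1.11 ± 0.13 (log2, limma adjusted p = 4.7e-04). In MI48 its levels were 10.4 and 12.9 in control and 5.14 and 6 in salt, also separate. IDEF1, a factor that acts early in the iron deficiency response, was not called in the bulks.

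Phytosiderophore synthesis was represented by NAAT1, the aminotransferase that turns nicotianamine towards deoxymugineic acid. It had levels of 23.8 and 23 in tolerant control, 15.4 and 13 in salt, 27.1 and 26.7 in sensitive control, and 13 and 13.6 in salt, with separate groups in both bulks. It fell by 0.86 ± 0.10 (adjusted p = 4.2e-04) in the average and by 1.01 in the sensitive bulk. In the tolerant bulk the fall of 0.72 did not pass after quantile normalization (adjusted p = 0.071). In MI48 the groups overlapped, at 20.7 and 49.6 in control and 7.55 and 34.1 in salt.

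Metal transporters among the falls were led by NRAMP1, whose product imports iron and cadmium. It had levels of 6.72 and 5.07 in tolerant control, 1.75 and 1.89 in salt, 12.2 and 5.98 in sensitive control, and 4.21 and 3.41 in salt. It fell by 1.35 ± 0.22 (adjusted p = 0.0024). In MI48 NRAMP1 was lower too, from 18.9 and 16.6 in control to 1.76 and 0.848 in salt. NRAMP5, the manganese and cadmium importer of roots, fell by 0.73, and VIT1, a vacuolar iron and zinc transporter, by 0.74, and neither passed after quantile normalization (adjusted p = 0.054 and 0.075). Among transporters of the YSL family 1 of 2 probe sets of YSL12 fell, by 0.99 (adjusted p = 9.9e-04) and the dim YSL8 by 1.53 (adjusted p = 0.011). For NRAMP4 1 of 5 probe sets fell, by 0.38, which did not pass after quantile normalization (adjusted p = 0.41), and the others were not called. ZIP2 rose in the sensitive bulk by 0.91 ± 0.23 (adjusted p = 0.044). Its value was -0.51 in the tolerant bulk (adjusted p = 0.27) and 0.20 in the average (adjusted p = 0.48), and the difference of the responses did not pass (-1.42, adjusted p = 0.26).

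The methionine cycle, which supplies S-adenosylmethionine for nicotianamine, had 7 probe sets. SAM1, an S-adenosylmethionine synthetase gene, rose by 0.39 ± 0.10 in the average (adjusted p = 0.024) and by 0.84 in the sensitive bulk, where its levels were 150 and 164 in control and 263 and 301 in salt. In the tolerant bulk the value of SAM1 was -0.07 (adjusted p = 0.86), and the difference of the responses did not pass (-0.91, adjusted p = 0.2). ARD4 fell by 0.32 in the average under median scaling (adjusted p = 0.026) but did not pass after quantile normalization (adjusted p = 0.35).

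Marker sums also differed between control and salt in the bulks, and those of seed and leaf moved in opposite directions in the tolerant and the sensitive bulk. The root marker sum was 58.1 to 60.6 in tolerant control and 39.4 to 39.5 in salt, and 39.5 to 41.5 in sensitive control and 33.4 to 34.3 in salt. In the average 1 of 7 tested root marker probe sets was called, where 14.9% of all probe sets were, 12.2% lower. It was LSI1, which fell by 0.60 ± 0.12 (limma adjusted p = 0.0067). Seed marker sums were 540 to 642 in tolerant control, 247 to 255 in tolerant salt, 74.3 to 75.3 in sensitive control and 250 to 252 in sensitive salt. Leaf marker sums were 2413 to 3439 and 2170 to 2328 in the tolerant bulk, and 1950 to 2645 and 2872 to 3066 in the sensitive bulk. Their part in the values of osysl16, NAS1, IRO3, NAAT1 and NRAMP1 was not tested.

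In MI48 the list was described without a test. Of 46 list probe sets that passed the filter 6 lay lower and 23 higher on both salt arrays, next to 10.9% and 38.8% of all probe sets. Besides NRAMP1 and IRO3 the lower ones were NRAMP5, the zinc transporter gene ZIP1, the dim YSL11 and 1 of 2 probe sets of IDI2. NRAMP5 went from 6.84 and 14.1 to 3.11 and 1.2, and ZIP1 from 2.58 and 6.6 to 0.831 and 0.0435. Several others were higher, among them IDEF1, from 2.79 and 3.4 to 11.8 and 16.3, and the vacuolar transporter gene VIT2, from 6.47 and 6.07 to 26.6 and 21.4. After quantile normalization the median list difference was 0.08, beside 0.86 under median scaling, and the median over all probe sets was 0.04 beside 0.59.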

How the data were processed

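The authors deposited 1 linear intensity for each probe set on 16 Affymetrix rice arrays. The submitters' processing notes name GCOS 1.2 as the software, and its scaling and algorithm settings are not given in the sources used. The 123 control probe sets were left out. Each signal was divided by its array's median, and tests used log2(level + pseudocount), which understates folds of dim probe sets. For the 8 bulk arrays the pseudocount was 0.218 (the 25th percentile), a probe set needed a level of 1 on at least 2 arrays, and 32996 were tested. For the 14 arrays with rice signal the pseudocount was 0.201 and 42300 passed.

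Tests were limma 3.58.1 in R 4.3.3 (group means, eBayes with trend, two-sided, Benjamini-Hochberg over all tested probe sets, threshold 0.05), checked on simulated data. The number of arrays limits the precision.

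Names came from the platform annotation (22436 probe sets with 1 gene, 95 with several, 34727 with none), matched by gene ID to a RefSeq gene table of assembly ASM3414082v1, from which only names and gene order were used. Entries found under TOM1, TOM2, ARD1, ARD2 and FDH were left out of the list, on their annotation names alone, because those names point to other proteins or do not tie the entry to the gene meant. Members, lists, and the choice to fit the bulks alone were made with earlier results of these data known. Named were all members, called list genes, and for osysl15, NAS1 and IRT1 the 3 most similar named probe sets over the bulk arrays. Outside that rule, the root markers given by name (LSI1, LSI2, AMT1-2, SHR1, SCR1, CASP1) and the MI48 list genes ZIP1, YSL11, IDI2, IDEF1 and VIT2 were named after their values were seen. As alternatives, arrays were quantile normalized, the filter was dropped, the pseudocount was cut to 0.25 of its value, replicate number was a block, 14 or 16 arrays were fitted together, fits used the compared arrays alone, and single arrays were left out in turn.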

Additional observations from a re-analysis of the deposited data

Results flagged for a closer look

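NAS1 and IRT2 had salt arrays on opposite sides of their controls in different genotypes. NAS1 lay lower on both MI48 salt arrays (mean log2 difference -4.96) and higher on both salt arrays of the sensitive bulk (0.74). IRT2 lay lower on both MI48 salt arrays (-2.39) and higher on both salt arrays of the tolerant and of the sensitive bulk, at levels near or below the array median. In the tolerant bulk the closest salt and control arrays were nearly tied, at 0.829 and 0.827. IRT2 was too dim in the bulks to pass the filter. The difference between MI48 and the bulks was not tested for either gene, because the set was chosen with the MI48 values known.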

How the results depend on the processing

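The count of member genes called in the averaged response of the bulks was 1. It was 2 after quantile normalization, which added NAS1 (0.54, adjusted p = 0.02), with 3952 of 32957 probe sets called in all. It was 0 in the fits of 14 and of 16 arrays, where 25 of 42300 and 1 of 50537 probe sets were called in all, so those fits say nothing about the members, and 0 to 3 with 1 array left out. In the sensitive bulk it was 2, and 0 with 14 arrays (2 called in all), with 16 arrays (0 in all), or with only the arrays compared (343 of 29769 in all), and 0 to 3 with 1 array left out. With 1 array left out it was 0 to 2 between the bulks in control and 0 to 1 in salt, against 0 with all 8, and 0 throughout for the tolerant bulk and for the difference of the responses. The 3 in the averaged response and in the sensitive bulk arose without sensitive bulk control replicate 2, where NAS3 passed (-0.54 and -1.11), as did NAS1 in the average (0.38). The 2 in control arose without sensitive bulk control replicate 1 (NAS2 and IRT1), and 1 in salt without either sensitive bulk control array (NAS3). NAS1 between the bulks in control, uncalled in the main fit, passed in 1 of 15 alternatives, with log2 values from 0.38 to 0.63. The fits with parent arrays share their wider spread. For other iron genes, alternatives chosen after seeing the data gave 7 calls after quantile normalization, 13 with the block, 6 without the filter and 0 with 14 arrays, against 10. That count rose or fell with 1 array left out. Over all probe sets 4907 of 32996 were called in the main fit. In all, 3952 of 32957 were called after quantile normalization, 3708 of 57258 without the filter and 25 of 42300 with 14 arrays. Taken over probe sets as a whole, arrays that share a replicate number did not deviate together (correlations of at most 0.03 over 6 pairs of groups). For NAS2 and NAS3, however, replicate 1 lay above replicate 2 in every bulk group, while the other members were mixed. With the replicate block 1 member was called in the averaged response and 3 in the sensitive bulk, where NAS3 was added (adjusted p = 0.038). Shares over all probe sets are not given here for the block or for 1 array left out. Nothing is read from the counts of members or of other iron genes in those fits. Quantile normalization turned the sign of 7 uncalled values, to 0.19 for NAS2 in the average, 0.10 for NAS1 in the tolerant bulk, 0.12 for osysl15 in the sensitive bulk, -0.10 for NAS3 in control, and -0.042, -0.047 and -0.032 for osysl15, osysl16 and NAS2 between the bulks in salt. With 1 array left out, uncalled values that changed sign ran, in the average, from -0.31 to 0.29 for NAS2; in the tolerant bulk, from -0.11 to 0.18 for IRT1, -0.22 to 0.020 for NAS1, -0.57 to 0.038 for NAS2 and -0.32 to 0.39 for NAS3. In the sensitive bulk they ran from -0.20 to 0.18 for osysl15, -0.022 to 0.54 for IRT1 and -0.34 to 0.85 for NAS2. Between the bulks they ran from -0.36 to 0.020 for osysl15 and -0.34 to 0.40 for NAS3 in control, and from -0.11 to 0.20 for osysl15 and -0.22 to 0.39 for NAS2 in salt. For the difference of the responses they ran from -0.51 to 0.057 for IRT1 and -1.11 to 0.077 for NAS2. The MI48 count of 5 lower genes was 6 by quantile normalization or by rank, which added osysl16. Leaving out 1 array can only keep or raise this count, so it gives no check of it. The share of all probe sets lower on both salt arrays was 19% after quantile normalization. The CSR27 count stayed at 1 in both alternatives run.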
